A study of Mus musculus with 14 samples.

Results

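The comparison described here sets livers that carried both changes of the study, deletion of Cul3 in hepatocytes and a Western diet, against livers that carried neither. It used all genes of the deposited table and the 7 libraries of those 2 groups, of 14 libraries in all: 4 libraries of KO mice on Western diet (KO on WD) and 3 libraries of WT mice on control diet (WT on CD). The other 7 libraries, 3 of KO mice on CD and 4 of WT mice on WD, served to separate the share of each gene's change that went with the deletion from the share that went with the diet. All mice were C57BL/6 animals with a floxed Cul3 gene and ate their diet for 13 weeks, received an adeno-associated virus through the tail vein and stayed on the same diet for 5 more weeks. KO mice received a virus in which the hepatocyte promoter TBG drives Cre recombinase (AAV-TBG-Cre), and WT mice received AAV-TBG-Null. WT mice therefore also carried the floxed allele and a virus. Other liver cell types are not targeted by this promoter and were present in the whole-liver RNA. The composition of the diets, the sex of the mice and the exons that Cre removes are not stated in the labels.

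Cullin 3 is the scaffold of a family of ubiquitin ligases in which BTB-domain proteins such as KEAP1, SPOP and the KLHL proteins choose the substrate. The best known liver substrate is NRF2, which KEAP1 presents to cullin 3 for degradation under basal conditions, and which otherwise switches on genes of glutathione conjugation, quinone reduction and NADPH supply. A Western diet supplies fat and cholesterol, and in mouse liver sterol excess is known to lower the genes of cholesterol synthesis while lipid overload recruits and activates macrophages.

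RNA was read with QuantSeq 3' FWD libraries, which sample short tags next to the poly(A) tail of mRNAs, and the deposited values are FPKM, fragments scaled by transcript length and library size. A gene's level is set against its own level in other libraries and never against another gene's. All differences below are of log2(FPKM + 1), so those of genes with low values are understated. FPKM sums of the 7 libraries ran from 443818 to 516210, and 8816 to 9970 genes reached 1 FPKM, while the number of reads behind each library is unknown. Hepatocyte markers were high in every library: the summed FPKM of 21 such genes was 23593 to 29333 in KO on WD and 25086 to 26277 in WT on CD. The libraries fell into 2 sets by values that low genes share exactly, with a median of 7.08% of such values shared within set 1 and 2.63% between the sets. The sets also lay apart on the axis along which the 14 libraries varied most (PC1, 30.13% of the variance). Set 1 lay at -39.47 to -19.28 there and set 2 at 18.2 to 63.99. Over all 14 libraries PC1 split neither genotype nor diet, but on CD it set WT (-39.47 to -23.51) apart from KO (31.46 to 63.99). Genotype was split by the next axis (PC2, 19.04%), with WT at 12.43 to 41.25 and KO at -40.89 to -4.76. Diet was split by PC3 (9.81%), with CD at 14.32 to 28.31 and WD at -33.7 to -2.7. The labels do not say what the sets are. Set 1 holds KO on WD 1, 2 and 4, WT on WD 3 and 4 and all WT on CD libraries, so within set 1 the comparison is 3 libraries against 3, and KO on WD 3 is the library of set 2 in it. The labels do not say that every library came from its own animal, so the p-values rest on a spread between libraries that may be technical in part.

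Cul3 itself (ENSMUSG00000004364, minus strand, chr1:80264923-80340480 on mm10) was at 24.3, 26.6, 18.5 and 24.3 FPKM in KO on WD, against 23.9, 29.5 and 25.7 FPKM in WT on CD. The groups overlapped, and the difference was -0.17 ± 0.31 (SE; limma adjusted p = 0.782). In the remaining groups Cul3 was at 18.3, 15.4 and 11.3 FPKM in KO on CD, with 12.3, 7.46, 25.9 and 18 FPKM in WT on WD. A 3' tag can lie outside the exons that Cre removes, so these values do not check the deletion.

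Promoters of 5 genes that belong to main gene groups of the comparison are shown here. Trim30a is also among the genes on which deletion and diet add up. They were chosen after the values were seen. Only stretches that hold a match are shown, so they do not stand for their whole groups, and shares of genes with a match follow below. Each is the stretch of 120 bases just before the RefSeq start site (build GRCm38.p6), written 5′ to 3′ on the strand of the gene. In Isg15, Ifit1 and Trim30a, induced by interferon in mouse cells, capitals mark matches to the interferon-stimulated response element (TTTC and again TTTC with any 2 bases between them, searched on both strands). In Txnrd1 and Abcc4, both known NRF2 targets, capitals mark matches to the core of the antioxidant response element (TGACNNNGC, searched on both strands).
Isg15 (minus strand, chr4:156200819-156200938): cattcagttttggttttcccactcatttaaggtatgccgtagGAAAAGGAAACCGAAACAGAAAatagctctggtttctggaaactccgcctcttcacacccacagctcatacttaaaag
Ifit1 (plus strand, chr19:34640769-34640888): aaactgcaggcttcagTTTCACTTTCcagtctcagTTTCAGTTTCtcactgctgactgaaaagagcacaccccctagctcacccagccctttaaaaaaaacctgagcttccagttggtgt
Trim30a (minus strand, chr7:104465194-104465313): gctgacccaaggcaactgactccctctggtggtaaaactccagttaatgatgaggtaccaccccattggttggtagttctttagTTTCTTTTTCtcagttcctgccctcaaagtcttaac
Txnrd1 (plus strand, chr10:82859086-82859205): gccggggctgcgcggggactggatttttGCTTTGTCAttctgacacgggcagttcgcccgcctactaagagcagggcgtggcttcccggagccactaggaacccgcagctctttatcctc
Abcc4 (minus strand, chr14:118706220-118706339): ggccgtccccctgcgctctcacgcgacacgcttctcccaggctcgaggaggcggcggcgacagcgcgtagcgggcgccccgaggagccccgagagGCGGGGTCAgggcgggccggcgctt
Isg15 held 3 overlapping matches, which start 78, 72 and 66 bases before the start site on the strand opposite to the letters shown. Ifit1 held 2 matches, 104 and 85 bases before the start site, and Trim30a held 1 match at 36 bases, all on the strand shown. Txnrd1 held its match 92 bases and Abcc4 25 bases before the start site, both on the opposite strand.

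Over windows from 250 bases before to 50 bases after each RefSeq start, the interferon element was found in 3.44% of all 32851 windows, the antioxidant core in 12.4% and the STAT site TTCNNNGAA (both strands) in 8.30%. Counted per gene, over 27025 genes with a window, the shares were 3.99%, 13.99% and 9.55%, and the shares below are per gene. Among the 21 interferon response genes higher in KO on WD, 14 had a window, and 9 of these 14 genes (64.3%) held the interferon element. Among the 17 NRF2 targets higher in KO on WD, 15 had a window, and 4 of these 15 (26.7%) held the antioxidant core, as did 4 of the 14 interferon response genes (28.6%), while none of the 15 held the interferon element. Of the 18 male-biased genes lower in KO on WD, 11 had a window and none held a STAT site. Of the 72 genes that both deletion and diet raised, 52 had a window, of which 5 held the interferon element (9.62%) and 9 the antioxidant core (17.3%, near the 13.99% of all genes). A match describes these letters only and says nothing of binding.

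KO on WD and WT on CD differed in the expression of 1290 of 10870 tested genes (11.9%; limma, Benjamini-Hochberg adjusted p under 0.05), 1121 of them higher in KO on WD (10.3%) and 169 lower (1.55%). Of the 1121 higher genes, 693 differed by at least 1 and their median was 1.14. Of the 169 lower genes, 102 differed by at least 1 and their median was -1.16. The KO on WD values lay above those of WT on CD with no overlap for 2630 genes (24.2% of those tested) and below for 547 genes (5.03%). The preponderance of higher genes moved with the scaling. The median over all genes tested was 0.23 with the deposited scaling, 86.9% of the called genes being higher, and differences below are to be read against that median. After quantile normalization 472 genes were higher and 290 lower (61.9% higher), and after centring each library on its median 385 were higher and 327 lower (54.1% higher). Within library set 1 alone, a choice made after seeing the data, 1537 genes were called, and 1078 of the 1290 (83.6%) were among them. Leaving out WT on CD 1, 3 or 4 left 686, 638 and 745 called genes, and leaving out KO on WD 3 left 840. Of the 151 called genes named in the text, 97 kept the call in each of the 14 fits that left out 1 library and 54 lost it in at least 1, all 54 with an adjusted p of 0.0103 or more in the fit of all libraries. Leaving out WT on CD 1, 3 or 4 ended 36, 44 and 36 of these calls and leaving out KO on WD 1, 2, 3 or 4 ended 20, 18, 27 and 23, with adjusted p up to 0.206. Such genes are listed with the group they belong to. Of 159 called genes taken in by the rule for named genes or by later choice, 33 lost the call after quantile normalization and 42 after median centring.

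The largest rises joined glutathione transferases with surface proteins of the Ly6 family and interferon-inducible genes. Ly6d, which encodes a GPI-anchored surface protein of the Ly6 family (ENSMUSG00000034634, minus strand, chr15:74762056-74763620), was at 218, 159, 379 and 269 FPKM in KO on WD, against 0.236, 0.832 and 0 FPKM in WT on CD. No KO on WD library came near a WT on CD library, and the difference of 7.54 ± 0.49 (limma adjusted p = 1.66e-06) was the largest rise by the rule for named genes. Gstm3, a mu-class glutathione transferase, was at 2690.2, 2702, 3823 and 3765 FPKM in KO on WD, against 79.3, 108 and 101 FPKM in WT on CD (difference 5.06 ± 0.42, limma adjusted p = 1.05e-05). Gsta1, an alpha-class transferase, was at 175, 143, 217 and 206 FPKM in KO on WD and 4.68, 14.2 and 9.48 FPKM in WT on CD (difference 4.25 ± 0.42). Both transferases have close paralogs, and the labels do not say how reads shared between paralogs were assigned. Summed over 7 Gstm genes, FPKM ran from 23478 to 31798 in KO on WD and from 1907 to 2612 in WT on CD, so the family as a whole was higher by 3.49. Summed over 4 Gsta genes, FPKM ran from 1228 to 1945 in KO on WD and from 823 to 1044 in WT on CD, higher by only 0.63, far less than Gsta1 alone.

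Nrxn2, which encodes a neurexin cell adhesion protein, was at 92.4, 104, 126 and 65.7 FPKM in KO on WD and at 6.05, 3.29 and 2.33 FPKM in WT on CD (difference 4.36 ± 0.30, limma adjusted p = 2.50e-06). Ifi27l2b, of a family induced by interferon, was at 155, 114, 161 and 138 FPKM in KO on WD and at 7.01, 4.28 and 4.61 FPKM in WT on CD (difference 4.52 ± 0.23, limma adjusted p = 3.21e-07). These libraries of KO on WD lay close together. Spink3, a secreted trypsin inhibitor, averaged 55.4 ± 32.2 FPKM in KO on WD and 1.08 ± 0.295 in WT on CD (SD, n = 4 and 3), and KO on WD 3 was its highest library at 100 FPKM. Ly6c1 and Ly6a, both Ly6 family members known from leukocytes and endothelium, rose by 4.31 ± 0.40 and 4.0 ± 0.31, and Cib3, a calcium-binding protein, rose by 3.69 ± 0.40. S100a9, a subunit of calprotectin and a neutrophil protein, was uneven, at 61.6, 167, 211 and 28.9 FPKM in KO on WD against 4.34, 0.508 and 13.0 FPKM in WT on CD. Its rise of 4.22 ± 0.92 (limma adjusted p = 0.0103) was lost without WT on CD 3 (adjusted p = 0.0587, the highest of the 14 fits that each left out 1 library).

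The largest falls were those of an alpha-1 antitrypsin, male-biased enzymes, Cyp3a genes and major urinary proteins, which male mouse liver secretes as pheromone carriers. Serpina1e, an alpha-1 antitrypsin paralog, was at 563, 113, 68.9 and 61.8 FPKM in KO on WD, against 9650.0, 10028 and 11993 FPKM in WT on CD. KO on WD 1 stood above the other 3, yet far below WT on CD, and the difference was -6.34 ± 0.77 (limma adjusted p = 2.45e-04). Its paralogs can share reads with it, and the sum over 6 Serpina1 genes, 15200 to 18763 FPKM in KO on WD and 33894 to 38140 FPKM in WT on CD, was lower, by a log2 difference of -1.08. Hsd3b5, a male-specific hydroxysteroid dehydrogenase (minus strand, chr3:98618634-98630252), was at 1.23, 1.54, 0.131 and 0.483 FPKM in KO on WD and at 46.6, 26.6 and 24.3 FPKM in WT on CD (difference -4.19 ± 0.37, limma adjusted p = 1.42e-05). Elovl3, a fatty acid elongase that is higher in male liver (plus strand, chr19:46131897-46135694), was at 1.32, 0.181, 0.284 and 0.662 FPKM in KO on WD and at 17.0, 19.7 and 17.6 FPKM in WT on CD (difference -3.61 ± 0.25, limma adjusted p = 2.50e-06). Both genes were almost absent from KO on WD.

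Mup11, Mup17, Mup16, Mup15 and Mup1 fell by 3.94, 3.87, 3.72, 3.53 and 3.54. Mup1 was at 748, 2045, 189 and 339 FPKM in KO on WD and at 3575, 14488 and 5304 FPKM in WT on CD, and its fall was lost without WT on CD 3 (adjusted p = 0.080). Mup genes are near-identical copies among which reads can be split, so their sum is the firmer value: over 21 Mup genes it was 14150 to 36848 FPKM in KO on WD and 103719 to 131244 FPKM in WT on CD, lower by 2.27 in KO on WD. The Cyp3a genes fell with the diet. Cyp3a11, the main steroid- and drug-metabolising Cyp3a of mouse liver, was at 174, 250, 165 and 316 FPKM in KO on WD against 3256, 3812 and 5129 FPKM in WT on CD (difference -4.19 ± 0.92, limma adjusted p = 0.0109), and its paralog Cyp3a41a fell by 3.56 ± 0.58. The sum over 9 Cyp3a genes was 609 to 1106 FPKM in KO on WD and 3862 to 5956 FPKM in WT on CD, a log2 difference of -2.45. The averaged diet effects of Cyp3a11 and Cyp3a41a were -3.15 and -2.80, both past the threshold (adjusted p = 0.0173 and 0.00245; the first 0.0509 without KO on CD 1), and their averaged deletion effects of -1.04 and -0.76 were not (adjusted p = 0.317 and 0.24).

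**Figure D1:**
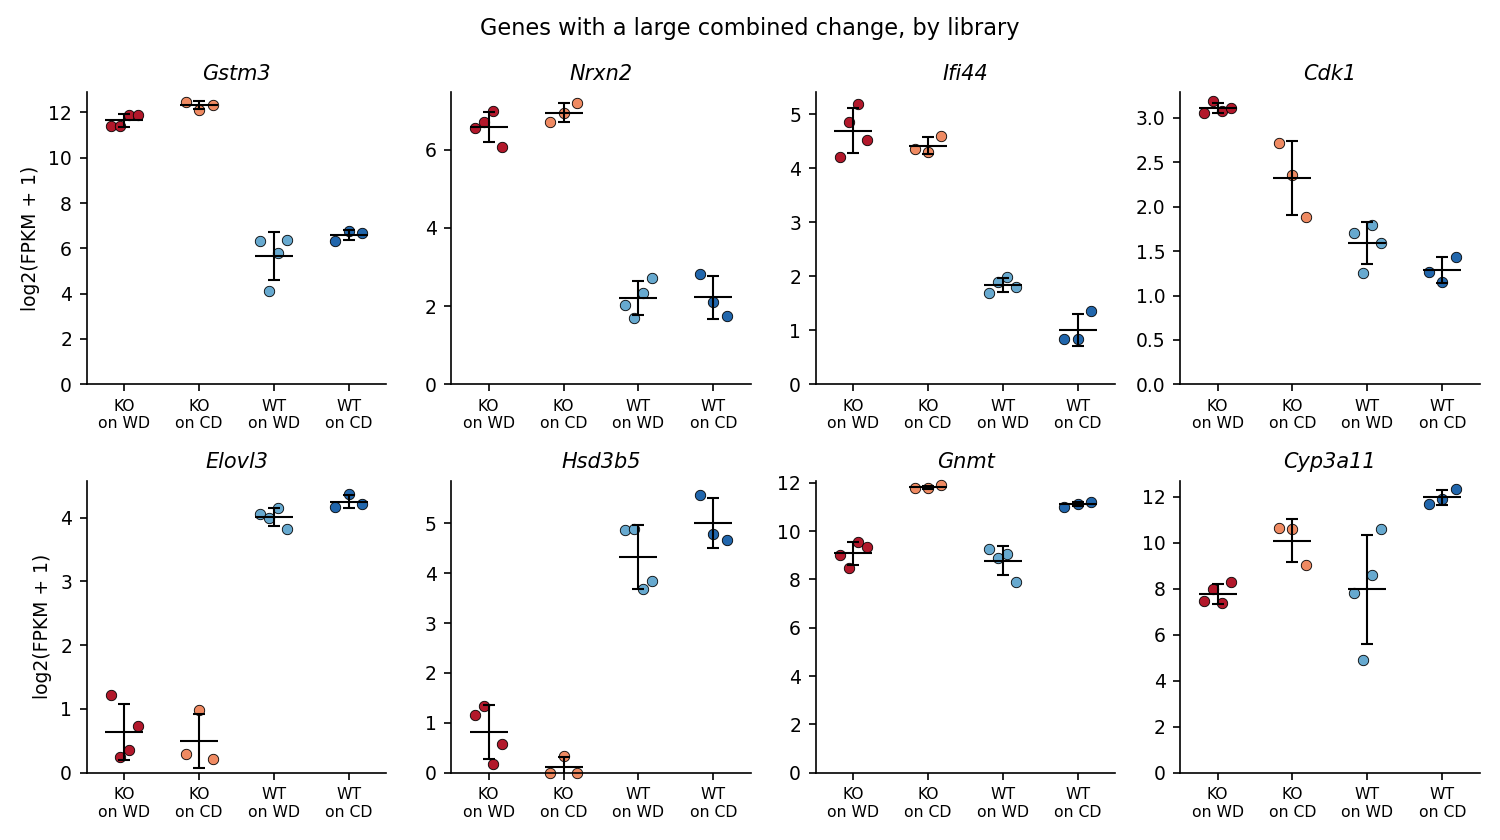
FPKM on the log2(FPKM + 1) scale (vertical axis) of 8 genes in KO on WD, KO on CD, WT on WD and WT on CD; points are libraries and bars the mean ± SD. Gstm3, Nrxn2, Ifi44 and Cdk1 are higher and Elovl3, Hsd3b5, Gnmt and Cyp3a11 lower in KO on WD than in WT on CD.

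On the log2 scale the combined change of a gene equals the deletion effect averaged over both diets plus the diet effect averaged over both genotypes. In the fit of group means, without a term for the library set, the errors of these 2 averaged effects are uncorrelated. Folds, not FPKM, add on this scale. The averaged deletion effect was called for 1640 genes (15.1% of those tested), 1459 higher (13.4%) and 181 lower (1.67%) in KO, and the averaged diet effect for 449 genes (4.13%), 249 higher (2.29%) and 200 lower (1.84%) on WD. All WT on CD libraries are in set 1 and all KO on CD libraries in set 2. On CD the deletion therefore cannot be told apart from the library set. With the library set as a term, 1259 genes were called for the deletion and 603 for the diet. These splits moved with the scaling too. Of the called deletion effects 89.0% were higher with the deposited scaling, 60.3% after quantile normalization and 58.9% after median centring, and of the called diet effects 55.5%, 46.5% and 37.4%. Of the 1121 genes higher in KO on WD, the deletion effect was the larger of the pair in 784 (69.9%). Of the 169 lower genes it was the larger in 85 (50.3%). By the tests of the single effects, the 1290 called genes held 749 with a called deletion effect alone (672 higher, 77 lower) and 179 with a called diet effect alone (126 higher, 53 lower). In 77 both effects were called in the same direction and in 9 in opposite directions. The remaining 276 (246 higher, 30 lower) passed only as a sum, since neither single effect was called.

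NRF2 targets were the group closest to the deleted gene by pathway. Of 33 tested members of a textbook list, 17 rose and 1 fell in KO on WD, with a median of 1.24 against 0.23 for all genes. Counts of this and of all later lists are to be read beside the 10.3% of all tested genes that were higher and the 1.55% that were lower. Gstm1, Gstm4 and Abcc4 had, with Gstm3, the smallest p-values of the list. Gstm1 was at 19968, 19767, 26301 and 22403 FPKM in KO on WD and at 1525, 2149 and 2186 FPKM in WT on CD (difference 3.51 ± 0.21). Abcc4, an exporter of bile acids and conjugates, was at 8.82, 7.83, 7.22 and 6.48 FPKM in KO on WD and at 0.183, 0.723 and 0.11 FPKM in WT on CD (difference 2.70 ± 0.21). Its 4 KO on WD libraries lay close together, and its promoter is among those printed above. Gstm4 rose by 2.73 ± 0.21. The reductase Nqo1 rose by 2.90, the sulfiredoxin Srxn1 by 2.66, the thioredoxin reductase Txnrd1 by 1.24 and the glutamate-cysteine ligase subunit Gclc by 1.21, values given for 4 widely used NRF2 reporters chosen after the values were seen. The group moved with the deletion: its median deletion effect was 1.01 (21 members called higher, 1 lower) and its median diet effect -0.05 (1 higher, 2 lower). The member that fell was the peroxiredoxin Prdx1, by 0.61, a call lost in 7 of 14 fits that left out a library.

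Of 12 tested genes of glucuronidation 4 rose and none fell, all of the Ugt2b family: Ugt2b1 (0.91), Ugt2b35 (1.09), Ugt2b36 (0.83) and Ugt2b37. Ugt2b37, which attaches glucuronic acid to lipophilic substrates, was at 24.3, 28.9, 42.5 and 14.6 FPKM in KO on WD and at 5.88, 6.55 and 5.47 FPKM in WT on CD (difference 1.95 ± 0.33, limma adjusted p = 0.00232). Of 15 tested transporters of bile acids and organic anions 7 rose and 2 fell; after quantile normalization 3 rose and 3 fell. Abcc3, a basolateral exporter of conjugates, averaged 29.6 ± 3.95 FPKM in KO on WD and 11.1 ± 2.70 in WT on CD (SD, n = 4 and 3; difference 1.36 ± 0.21). The uptake carrier Slco1a4 went the other way, at 5.10, 6.75, 5.71 and 12.6 FPKM in KO on WD against 31.2, 37.5 and 42.9 FPKM in WT on CD (difference -2.23 ± 0.27). Of 17 tested genes encoding cullin 3 and its adaptors and substrates, 2 rose and 1 fell, with a median of 0.18 against 0.23 for all genes. That count of rises is near the 10.3% of all tested genes that were higher, and 1.55% were lower. After quantile normalization 1 member rose and 1 fell. Nfe2l2, which encodes NRF2, rose by 0.73 and the adaptor gene Klhl13 by 1.36, while the adaptor gene Klhl12 fell by 0.68. The calls of Ugt2b35, Nfe2l2 and Klhl12 were lost in 11, 5 and 5 of the fits that left out a library.

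Genes that are higher in male than in female liver formed the most uniform group of falls. Of 24 tested members 18 fell and none rose, with a median of -2.56, while 1.55% of all tested genes fell. In 22 members the KO on WD libraries were all below those of WT on CD, against 5.03% of all tested genes. The count of members that fell was 19 after quantile normalization and 21 within library set 1. Their median deletion effect was -2.98 (19 lower) and their median diet effect 0.09. Most of the members that fell are Mup genes, which can share reads, so they are not independent. Of 10 tested female-biased genes 3 rose and 2 fell, and after quantile normalization 1 rose and 2 fell. The P450 genes Cyp2a4, Cyp17a1 and Cyp2c69 rose by 1.65, 1.36 and 0.84, and the P450 genes Cyp3a41a and Cyp3a44 fell by 3.56 and 1.10. The calls of Cyp2a4, Cyp17a1, Cyp2c69 and Cyp3a44 were lost in 1 to 3 of the fits that left out a library, each time on leaving out WT on CD libraries or KO on WD 4.

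Interferon response genes rose together. Of 25 tested members 21 rose and none fell, with a median of 1.70. After quantile normalization 17 rose, and within library set 1 alone 20 did. Ifi44, an interferon-induced protein, was at 17.5, 27.7, 35.3 and 22.1 FPKM in KO on WD and at 0.779, 0.789 and 1.55 FPKM in WT on CD (difference 3.68 ± 0.23, limma adjusted p = 1.21e-06). Irf7, the transcription factor that amplifies type I interferon, was at 36.3, 41.0, 51.5 and 36.3 FPKM in KO on WD and at 3.86, 2.86 and 4.87 FPKM in WT on CD (difference 3.13 ± 0.22). Isg15, a ubiquitin-like modifier, was at 9.25, 8.63, 11.3 and 10.4 FPKM in KO on WD and at 0.231, 0.271 and 0.671 FPKM in WT on CD (difference 2.98 ± 0.28). In all 3 genes the groups were far apart. The median deletion effect of the list was 1.35 (22 higher) and the median diet effect 0.39 (3 higher). Of 12 tested antigen presentation genes 4 rose and none fell, 2 of them after quantile normalization. They were the histocompatibility genes H2-D1 (0.93) and H2-Aa (1.51) and the immunoproteasome subunit genes Psmb8 (1.52) and Psmb10 (1.12). The calls of H2-D1 and Psmb10 were lost in 4 and 1 of the fits that left out a library.

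Markers of immune cells were also higher, and in whole liver more cells of a type and more RNA per cell cannot be told apart. Of 15 tested Kupffer cell and macrophage markers 11 rose and none fell, with a median of 1.44, and 7 rose after quantile normalization. Clec4f, a lectin of Kupffer cells, was at 24.6, 29.8, 32.5 and 29.7 FPKM in KO on WD and at 7.59, 6.44 and 9.37 FPKM in WT on CD (difference 1.78 ± 0.25, limma adjusted p = 7.89e-04). The phagosome protein Cd68 was at 22.0, 33.3, 30.3 and 19.7 FPKM in KO on WD and at 5.68, 5.39 and 6.79 FPKM in WT on CD (difference 1.95 ± 0.32). The summed FPKM of 15 of these markers was 242 to 448 in KO on WD and 71.8 to 106 in WT on CD, with 127 to 299 in KO on CD and 127 to 227 in WT on WD. None of the 15 was at 0 in every library of a group. The part that macrophages had in the rises of interferon and other genes was not tested.

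Of 11 tested genes of recruited and lipid-associated macrophages 4 rose and none fell (Cd36 by 2.58, the galectin gene Lgals3 by 2.16, the monocyte antigen gene Ly6c2 by 1.88 and the proton pump subunit gene Atp6v0d2 by 1.34). The summed FPKM of the list was 252 to 287 in KO on WD and 123 to 144 in WT on CD. Of 15 tested chemokines and cytokines 5 rose and none fell: Cxcl9, Il1b, the chemokine Cxcl10 (1.67), the hyaluronan receptor Cd44 (1.77) and the leukocyte adhesion molecule Vcam1 (1.43). Cxcl9, an interferon-gamma-induced attractant of T cells, was at 11.4, 17.3, 17.8 and 22.1 FPKM in KO on WD and at 2.12, 0.528 and 2.75 FPKM in WT on CD (difference 2.76 ± 0.30). Il1b, the inflammasome-processed cytokine, was at 12, 13.8, 15.4 and 2.94 FPKM in KO on WD and at 0, 1.26 and 1.14 FPKM in WT on CD (difference 2.64 ± 0.46), with KO on WD 4 well below the other 3. Of 4 tested neutrophil markers 3 rose: S100a9, the cathelicidin gene Camp (3.43) and the lipocalin gene Lcn2 (3.36). Their summed FPKM ranged widely, from 144 to 822 in KO on WD and from 8.32 to 85.6 in WT on CD, and 1 marker was called without KO on WD 3. None of the 4 tested T, B and NK cell markers was called. That list's summed FPKM was 8.25 to 30.8 in KO on WD and 4.36 to 5.89 in WT on CD, and 5 of its 15 members were at 0 in every WT on CD library against 2 in KO on WD. Fits that left out a library ended the calls of Atp6v0d2 and Lgals3 once each, of Cd44 in 2, Vcam1 in 4, Camp in 5 and Lcn2 in 9.

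Markers of other cell types were called in part, where 10.3% of all tested genes were higher and 1.55% lower. Of 10 tested endothelial markers 4 rose (Lyve1 by 2.23, Pecam1 by 1.17, Kdr by 0.83 and Stab2 by 0.75), and 1 did after quantile normalization, with summed FPKM of 139 to 253 in KO on WD and 99.9 to 152 in WT on CD. None of 8 tested stellate cell and fibroblast markers was called (summed FPKM 360 to 431 in KO on WD and 272 to 377 in WT on CD), and 2 of 11 tested genes of extracellular matrix rose, the collagen genes Col4a1 (1.28) and Col1a2 (0.77). Of 6 tested cholangiocyte and ductular markers 2 rose, Tff3 (2.91) and the keratin gene Krt23 (1.32). The summed FPKM of that list was 52.1 to 133 in KO on WD and 9.97 to 21.5 in WT on CD, and most of it in KO on WD was Tff3, a trefoil peptide of mucous epithelia. Of 10 listed fetal liver and progenitor genes 4 were tested and 3 rose: Ly6d, the growth factor gene Igf2 (1.18) and the cell cycle inhibitor gene Cdkn1c (2.40). Ly6d is the largest rise described above, and the lists were chosen with earlier results of these data known. Its place in this count is therefore no separate evidence. Of 5 erythroid markers none was called, of 3 tested adipocyte markers 1 fell (Car3, a carbonic anhydrase that hepatocytes express too, by 2.03), and neither of the 2 tested pancreatic acinar markers was called. Fits that left out a library ended the calls of Pecam1 in 2, Kdr in 6, Stab2 in 10, Col1a2 in 11 and Krt23 in 4.

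Genes of DNA replication and mitosis were low in every group and higher in KO on WD. Of 21 tested members 9 rose and none fell, with a median of 0.90, and 5 rose after quantile normalization. Cdk1, the kinase that drives entry into mitosis, was at 7.34, 8.13, 7.44 and 7.68 FPKM in KO on WD and at 1.41, 1.22 and 1.71 FPKM in WT on CD (difference 1.82 ± 0.21, limma adjusted p = 1.70e-04). Top2a, the topoisomerase of replicating cells, was at 4.67, 8.31, 3.09 and 3.36 FPKM in KO on WD and at 0.61, 0.113 and 0.714 FPKM in WT on CD (difference 1.93 ± 0.28). The median deletion and diet effects of the list were both 0.48, against 0.18 and 0.07 for all tested genes. For the deletion 6 members were called higher, where 13.4% of all tested genes were. None was called for the diet, where 2.29% of all tested genes were called higher. Of 16 tested G1 cyclin and p53 response genes 5 rose and none fell: Ccnd1, Ccnd2 (1.37), the cell cycle inhibitor gene Cdkn1a (1.35), the DNA damage response gene Gadd45a (1.08) and Mdm2 (0.86), whose product degrades p53. After quantile normalization 2 members of that list rose, as did 2 after median centring. Ccnd1, which encodes cyclin D1, was at 26.5, 52.7, 68.6 and 59.6 FPKM in KO on WD and at 12.4, 7.41 and 6.74 FPKM in WT on CD (difference 2.39 ± 0.38). Fits that left out a library ended the calls of Ccnd2 in 1, Cdkn1a in 5, Gadd45a in 6 and Mdm2 in 6.

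Hepatocyte functions moved in part. Of 22 tested hepatocyte markers 1 rose (the apolipoprotein gene Apoc3, by 0.60) and 4 fell, with a median of -0.13. The 4 were Cps1 (-1.26), the gluconeogenic Pck1 (-1.08), the tyrosine-degrading Hpd (-0.83) and the apolipoprotein gene Apoa1 (-0.81). Of 16 tested pericentral genes 1 rose (Cyp1a2, by 1.0) and 6 fell, among them the ornithine aminotransferase Oat (-1.88), the glutamine synthetase Glul (-0.87) and Cyp2e1, the ethanol-oxidising P450, at 36.7, 49.5, 77.4 and 63.2 FPKM in KO on WD against 136, 167 and 157 FPKM in WT on CD (difference -1.47 ± 0.24). Cyp2c29, another pericentral P450, averaged 147 ± 50.7 FPKM in KO on WD and 418 ± 24.9 in WT on CD (SD, n = 4 and 3; difference -1.57 ± 0.29). The routes differed: Cyp2e1 had a deletion effect of -1.34 and a diet effect of -0.12, Cyp2c29 a deletion effect of -0.05 and a diet effect of -1.52. Of 13 tested periportal genes 2 rose (the lipid droplet enzyme Hsd17b13 by 1.17 and the serine dehydratase-like Sdsl by 1.45) and 3 fell (Cps1, Pck1 and the urea cycle enzyme Asl, the last by 0.80). In that list the deletion raised 7 members and lowered 1 while the diet raised none and lowered 6, and its median combined change was 0.02, below that of all genes. Of 22 tested genes of the urea cycle and amino acid catabolism none rose and 4 fell (Cps1, Asl, Hpd and Got1), 8 after quantile normalization. Got1, the cytosolic aspartate aminotransferase, averaged 63.7 ± 13.2 FPKM in KO on WD and 188 ± 10.5 in WT on CD (difference -1.56 ± 0.30). Of 13 tested genes of the methionine cycle and transsulfuration 1 rose and 4 fell. Mat2a, which makes S-adenosylmethionine, rose by 0.77, while Gnmt, Csad, the adenosylhomocysteine hydrolase Ahcy (-0.91) and the phosphatidylethanolamine methyltransferase Pemt (-0.50) fell. Gnmt, which disposes of excess methyl groups by methylating glycine (minus strand, chr17:46725664-46729168), was at 509, 351, 744 and 648 FPKM in KO on WD and at 2064, 2243 and 2331 FPKM in WT on CD (difference -2.03 ± 0.30, limma adjusted p = 0.00103). Fits that left out a library ended the calls of Glul in 1, of Apoc3, Pck1, Oat and Ahcy in 2 each, of Asl and Cyp1a2 in 5 each, and of Apoa1 and Pemt in 8 each.

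Cholesterol synthesis and uptake fell with the diet. Of 23 tested members 7 fell and none rose, with a median of -0.83. The diet effect was called lower for 14 members and higher for none (median -0.97), and the deletion effect was called higher for 2 (median 0.10). Msmo1, a methylsterol oxidase, was at 26.1, 37.9, 24.9 and 17.7 FPKM in KO on WD and at 109, 101 and 112 FPKM in WT on CD (difference -2.02 ± 0.33). The sterol dehydrogenase Nsdhl was at 11.5, 9.93, 6.85 and 6.35 FPKM in KO on WD and at 31.3, 31.7 and 28.9 FPKM in WT on CD (difference -1.75 ± 0.27). In both genes every KO on WD library was below every WT on CD library. Of 13 tested genes of sterol handling linked to LXR 3 rose and none fell: Abcg5, its partner subunit Abcg8 (1.02) and the lipoprotein receptor Scarb1 (1.0). Abcg5, a subunit of the biliary sterol exporter, was at 50.4, 52.1, 69.3 and 67.8 FPKM in KO on WD and at 19.2, 19.3 and 22.9 FPKM in WT on CD (difference 1.49 ± 0.18).

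Lipid synthesis and storage genes gave calls to be read beside the 10.3% of all tested genes that were higher and the 1.55% that were lower. Of 16 tested genes of fatty acid synthesis none rose and 1 fell (the desaturase Fads1, by 0.91), although the deletion effect was called lower for 4 and the diet effect higher for 2. Of 15 genes of triglyceride synthesis and lipoprotein loading 3 rose: Mogat2, an acyltransferase, averaged 7.92 ± 2.67 FPKM in KO on WD and 0.338 ± 0.241 in WT on CD (difference 2.71 ± 0.30), the apolipoprotein Apoa4 rose by 3.11 ± 0.27, and Apoc2, the activator of lipoprotein lipase, rose by 1.59 ± 0.19. Of 13 lipid droplet genes 3 rose, the droplet fusion protein Cidec (1.98), Hsd17b13 (1.17) and the hormone-sensitive lipase Lipe (0.99), and 1 of them rose without KO on WD 3. Of 24 genes of fatty acid oxidation and ketogenesis 1 rose, the pantetheinase Vnn1 (2.10), and of 15 genes of bile acid synthesis 1 rose, the peroxisomal oxidase Acox2 (1.16). Of 17 xenobiotic cytochromes P450, 4 rose (Cyp2a22 by 3.27, Cyp2a5 by 1.94, Cyp1a2 by 1.0 and Cyp2d22 by 0.50) and 3 fell (Cyp3a11, Cyp2c29 and Cyp2e1). In that list the deletion raised 8 and lowered 1 while the diet lowered 5 and raised none. Of 26 genes of glycolysis, gluconeogenesis and glycogen 6 rose, the glycogen-targeting phosphatase subunit Ppp1r3c (1.49) among them, and Pck1 fell, but 1 rose and 3 fell after median centring. Fits that left out a library ended the calls of Vnn1 in 1, Cidec in 3, Fads1 and Lipe in 5 each and Cyp2d22 in 10.

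Calls in the remaining lists are to be read beside the 10.3% of all genes that were higher and the 1.55% that were lower. After quantile normalization 2 unfolded protein response genes rose and 1 fell, 1 complement and coagulation gene rose and 2 fell, and 2 iron handling genes rose. No gene of the acute phase, growth hormone axis or respiratory chain lists was then called. Of 22 unfolded protein response genes 4 rose, the chaperones Hsp90b1 (0.70) and Calr (0.60), the transcription factor Atf3 (1.59) and the pseudokinase Trib3 (1.79), and the asparagine synthetase Asns fell (-2.06). Of 31 proteasome genes Psma7 rose (0.68), and of 24 acute phase genes Lcn2 rose (3.36). Of 30 complement and coagulation genes C4b (0.90) and F13b (0.93) rose, and Hc (-0.80) and C6 (-1.01) fell. Of 18 secreted hepatokines Igfbp2, an insulin-like growth factor binding protein, fell (-1.54), and of 10 growth hormone axis genes the repressor Bcl6 rose (1.61). Of 13 clock genes none was called. Of 21 respiratory chain genes the succinate dehydrogenase subunit Sdha rose (0.52), and of 14 iron handling genes the iron exporter Slc40a1 (0.87), Hfe (0.64) and the biliverdin reductase Blvrb (1.70) rose. Fits that left out a library ended the calls of Asns and Psma7 in 1 each, C6 in 2, C4b and Slc40a1 in 4 each, Bcl6 in 5, Hfe in 6, Calr in 8, Hc in 9, and Hsp90b1 and Sdha in 10 each.

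**Figure D2:**
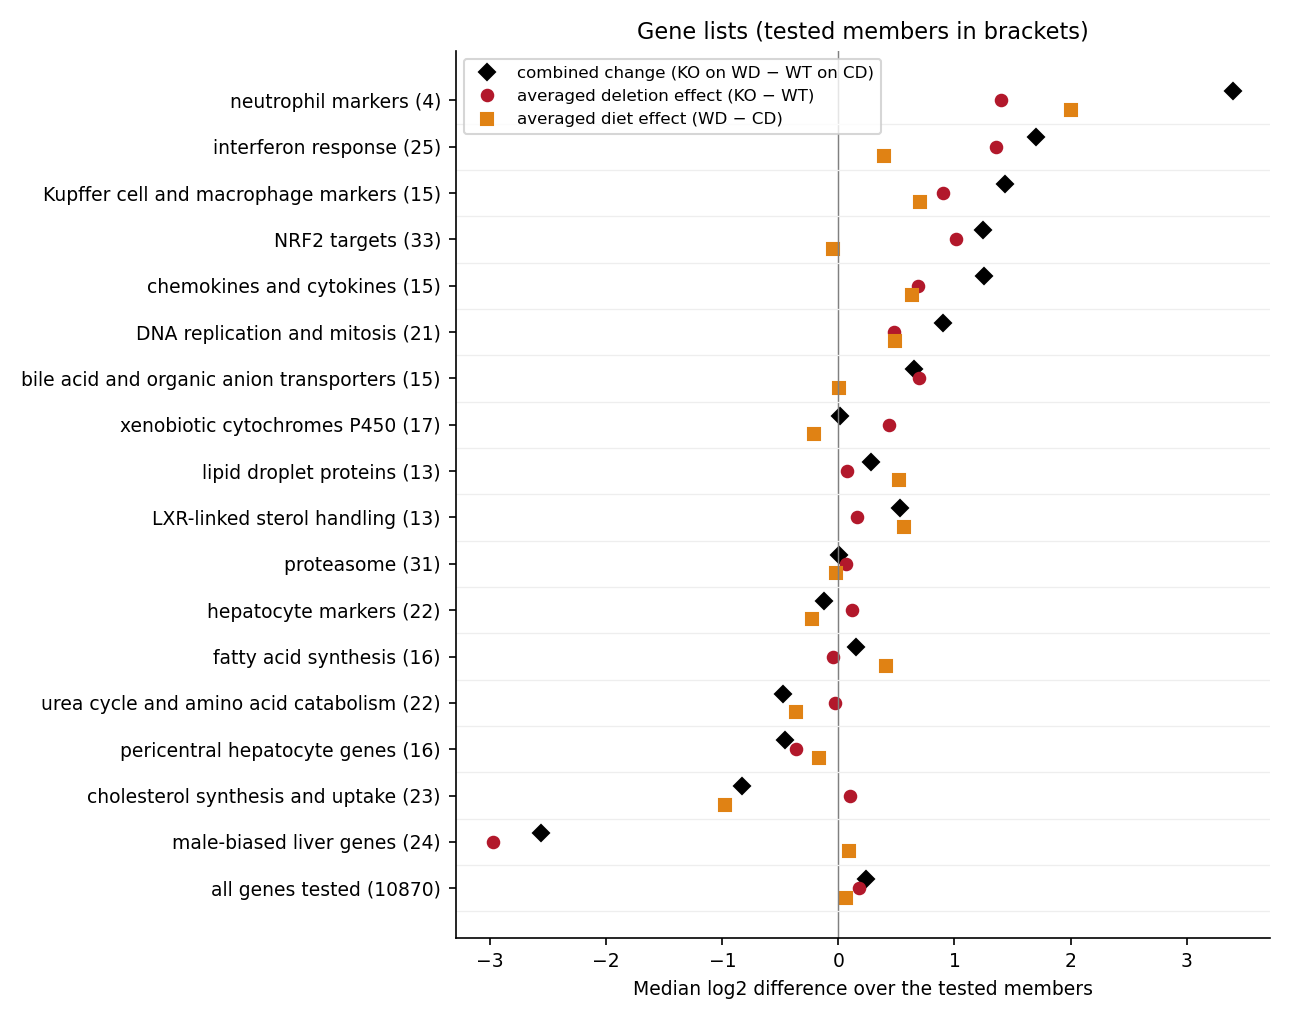
Median log2 difference (horizontal axis) of 17 gene lists and of all tested genes, for the combined change of KO on WD against WT on CD, the averaged deletion effect and the averaged diet effect. Interferon (1.70) and NRF2 (1.24) lists lie right of all genes (0.23) and the male-biased list (-2.56) left of them by the deletion effect, while the cholesterol list (-0.83) lies left by the diet effect.

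Deletion and diet were called for the same gene in 161 cases. They added up in 77 genes (0.708% of those tested), 72 with both effects higher and 5 with both lower. They cancelled in 84 genes (0.773%), 69 with the deletion higher and the diet lower, and 15 the other way round. All 77 genes that added up were called for the combined change, as the sum of 2 called effects of the same sign makes likely by construction. Of the 84 that cancelled, 9 were called and 75 were not. Combined changes of those 75 ran from -0.90 to 0.79 with a median of -0.02, and their median SE was 0.22. A change that was not called is not shown to be 0. Membership of both classes moved with the scaling. After quantile normalization 53 genes added up, 43 of them among the 77, and 51 cancelled, 44 of them among the 84. After median centring 52 genes added up, 41 of them among the 77, and 47 cancelled, 42 of them among the 84. With the library set as a term in the fit, 60 of the 72, 2 of the 5, 57 of the 69 and 14 of the 15 kept both calls, and in no gene did the 2 effects change from the same to opposite signs or back.

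**Figure D3:**
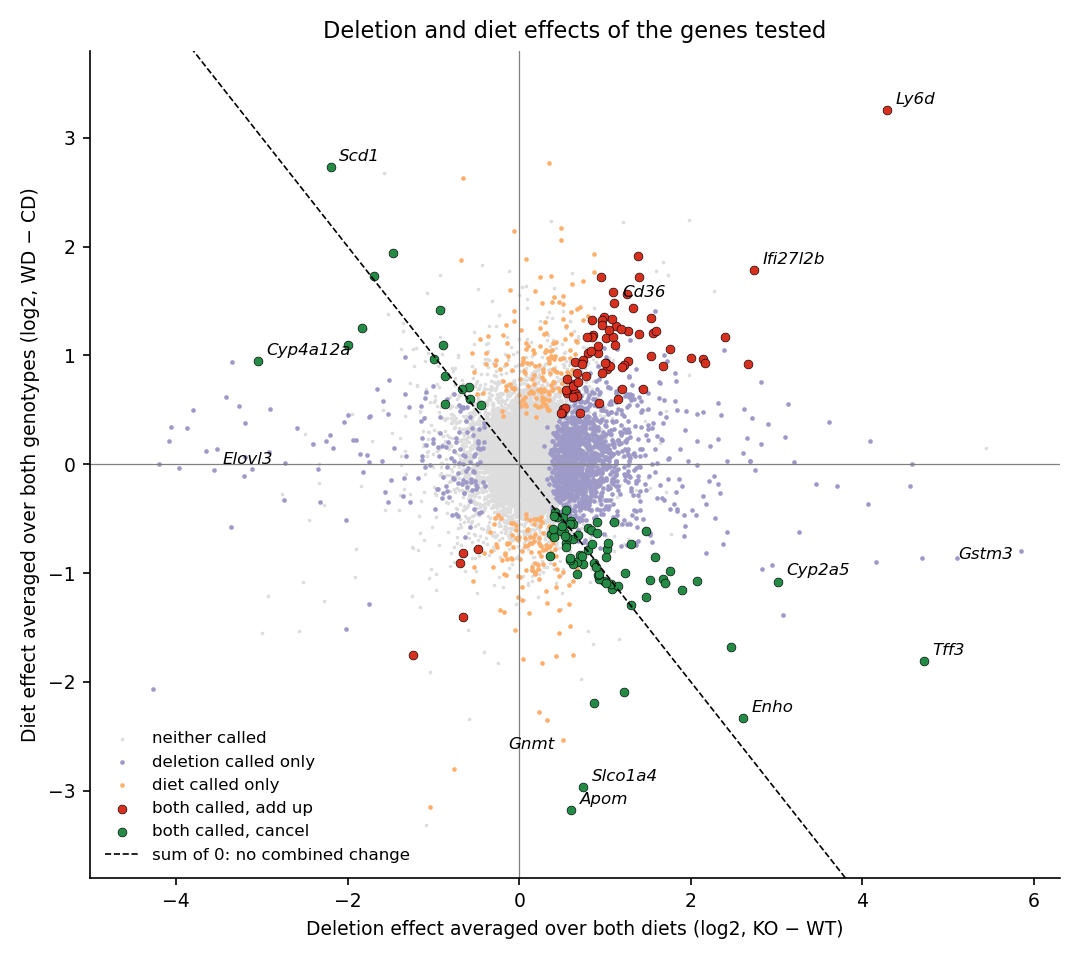
Averaged deletion effect (horizontal axis) against averaged diet effect (vertical axis), in log2 units, of all tested genes; colours mark the 72 and 5 genes on which the effects add up and the 69 and 15 on which they cancel. The dashed line marks a combined change of 0, and most cancelling genes lie near it.

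Both changes raised 72 genes, with Ly6d and Ifi27l2b at their head. Over the 72 genes the median combined change was 2.11 (0.96 to 7.54), with a median deletion effect of 1.01 and a median diet effect of 0.97, and the deletion effect was the larger in 35. All 72 had KO on WD libraries above those of WT on CD, as did 24.2% of all tested genes. The same sign in all 4 single steps between groups was found in 69, although all 4 steps were called in only 3 genes (Ly6d, Ifi27l2b and the RNA gene Snhg7). The 72 genes were chosen by effects in these same libraries, which makes such separation and such signs likely. Over all tested genes the step KO on WD against WT on WD was called for 7.01%, KO on CD against WT on CD for 15.0%, KO on WD against KO on CD for 6.38% and WT on WD against WT on CD for 1.3%. In Ly6d the remaining groups stood between: 43.6, 51.4 and 58.4 FPKM in KO on CD and 7.90, 57.1, 21.8 and 33.5 FPKM in WT on WD. Its deletion effect was 4.29 ± 0.35 and its diet effect 3.25 ± 0.35 (limma adjusted p = 3.62e-06 and 3.37e-04). Ifi27l2b was at 51.1, 73.3 and 49.4 FPKM in KO on CD, with 34.7, 20.9, 26.7 and 36.1 FPKM in WT on WD, with effects of 2.74 ± 0.16 and 1.78 ± 0.16. Both genes thus had 4 separate steps.

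The next genes by the rule encode leukocyte proteins or interferon targets. Samd9l, an interferon-induced antiviral protein, averaged 21.9 ± 4.28 FPKM in KO on WD, 6.41 ± 5.37 in KO on CD, 7.59 ± 4.0 in WT on WD and 1.67 ± 0.781 in WT on CD (SD, n = 4, 3, 4 and 3), with effects of 1.40 ± 0.31 for the deletion and 1.72 ± 0.31 for the diet. Cd52, a surface glycoprotein of leukocytes, averaged 135 ± 48.9 FPKM in KO on WD, 57.3 ± 16.4 in KO on CD, 68.3 ± 41.0 in WT on WD and 18.7 ± 5.5 in WT on CD, with effects of 1.33 ± 0.29 and 1.43 ± 0.29. Fcer1g, the signalling chain of Fc receptors, had effects of 1.26 ± 0.30 and 1.56 ± 0.30, and Lst1, a leukocyte transcript, effects of 1.38 ± 0.38 and 1.92 ± 0.38. These 4 genes moved about as far with either change. The deletion call of Lst1 was lost without KO on CD 3 (adjusted p = 0.0707) and after quantile normalization (adjusted p = 0.0703). The summed macrophage markers given above were also higher in KO on WD than in WT on CD, and their part in these rises was not tested.

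Other genes that added up, given after their values were seen, belong to lipid handling, NADPH supply and interferon response. Cd36, which takes up fatty acids and oxidised lipoprotein, was at 68.9, 60.1, 50.7 and 71.6 FPKM in KO on WD, at 11.6, 14.7 and 29.0 FPKM in KO on CD, at 21.1, 16.4, 24.3 and 31.0 FPKM in WT on WD, and at 5.93, 10.3 and 14 FPKM in WT on CD. Every KO on WD library lay above all 10 others, with effects of 1.10 ± 0.23 for the deletion and 1.48 ± 0.23 for the diet. Pgd, the NADPH-producing phosphogluconate dehydrogenase and an NRF2 target, averaged 53.3 ± 6.74 FPKM in KO on WD and 10.7 ± 2.36 in WT on CD, with effects of 1.27 ± 0.15 and 0.95 ± 0.15. Isg15 had effects of 2.0 ± 0.20 and 0.98 ± 0.20, and Trim30a, whose promoter is printed above, effects of 1.68 ± 0.16 and 0.90 ± 0.16. Cxcl9 had effects of 1.55 ± 0.21 and 1.21 ± 0.21. Of the 72 genes, the lists hold Isg15, Ifi27l2a and Parp14 (interferon response), Cd68 and Ctss (Kupffer cells), Cd36 (recruited macrophages), Cxcl9 (chemokines), Pgd (NRF2 targets), Ly6d (fetal liver), Col4a1 (matrix), Apoc2 (triglycerides), Abcg5 (LXR) and Atf3 (unfolded protein response). Of these, the diet calls of Cd68, Parp14, Ctss, Col4a1 and Atf3 were lost in 11, 8, 12, 10 and 6 of the 14 fits that left out a library, and the deletion calls of Ctss and Col4a1 in 7 and 1.

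Adding up depends on the scale. In FPKM, 57 of the 72 genes stood above the sum of the 2 single changes from WT on CD. Ly6d averaged 256 FPKM in KO on WD where the sum gives 80.9, Cd36 62.8 FPKM where it gives 31.6, and Ifi27l2b 142 FPKM where it gives 82.3. Apoc2 stood below, at 1951 FPKM in KO on WD where the sum gives 2697, as did Abcg5 at 59.9 FPKM where it gives 99.1. On the log2 scale the departure was positive in 32 of the 72 genes and called in 3, of which Abcg5 was negative (departure -1.48 ± 0.25, limma adjusted p = 0.0241). That departure was lost in 7 of 14 fits that left out a library, as well as on adding a term for the library set (adjusted p = 0.527), and the diet effect of Abcg5 (0.56) was lost in 4. Abcg5 was as high in KO on CD (67.3 ± 8.32 FPKM) as in KO on WD (59.9 ± 10.02), with WT on WD at 52.3 ± 7.75 and WT on CD at 20.5 ± 2.11 FPKM, so that each change alone came with most of the rise.

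Both changes lowered 5 genes, each more with the diet: Cyp3a41b, Susd4, Csad, Rnaseh2c and Cps1. Csad, which makes taurine from cysteine, was at 32.2, 27.4, 27 and 23.1 FPKM in KO on WD and at 69.5, 149 and 155 FPKM in WT on CD (difference -2.07 ± 0.27). Its deletion effect of -0.66 was called in the fit of all libraries (adjusted p = 0.0336) but not with the library set as a term (adjusted p = 0.0769), nor in 9 of 14 fits that left out a library. Cps1, the entry enzyme of the urea cycle, was at 34.0, 35.7, 28.4 and 36.7 FPKM in KO on WD and at 74.3, 84.1 and 86.6 FPKM in WT on CD (difference -1.26 ± 0.20). Its deletion effect of -0.48 (adjusted p = 0.0364) was likewise not called with the set term (adjusted p = 0.12) or in 8 of 14 such fits, and KO on WD (33.7 ± 3.71) did not lie below WT on WD (33.4 ± 8.82). Susd4, a complement regulator, and Rnaseh2c, a subunit of ribonuclease H2, kept both calls in those 14 fits and with the set term. The deletion effect of Cyp3a41b (-1.24) was lost in 5 of them and with the set term (adjusted p = 0.12). Susd4 averaged 3.51 ± 0.633 FPKM in KO on WD, 7.12 ± 0.571 in KO on CD, 6.05 ± 1.23 in WT on WD and 12.8 ± 3.41 in WT on CD, a near-even decline with either change. Rnaseh2c averaged 2.95 ± 0.899 FPKM in KO on WD, 8.57 ± 1.64 in KO on CD, 7.49 ± 0.474 in WT on WD and 9.76 ± 0.912 in WT on CD.

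Cancelling hid large single changes. Scd1, the stearoyl-CoA desaturase that makes oleate (minus strand, chr19:44394455-44407879), was at 455, 738, 937 and 881 FPKM in KO on WD and at 622, 369 and 547 FPKM in WT on CD, overlapping groups that differed by 0.53 ± 0.46 (limma adjusted p = 0.511). The single-change groups stood far off on either side, at 79.1, 37.1 and 195 FPKM in KO on CD, with 3009, 1625, 3902 and 2278 FPKM in WT on WD. The deletion effect was -2.20 ± 0.33 and the diet effect 2.73 ± 0.33 (adjusted p = 6.08e-04 and 8.38e-04), and all 4 single steps were called.

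In the same orientation, Paqr9, a membrane progestin receptor family member, averaged 10.6 ± 3.87 FPKM in KO on WD, 2.78 ± 1.39 in KO on CD, 30.4 ± 7.08 in WT on WD and 15.9 ± 3.55 in WT on CD, with effects of -1.83 ± 0.21 and 1.25 ± 0.21 and a combined change of -0.58 (limma adjusted p = 0.24). Inhbe, which encodes the activin E subunit, had effects of -0.92 ± 0.19 and 1.42 ± 0.19. Cyp4a12a, a male-biased fatty acid hydroxylase, was the called exception: at 16.6, 10.3, 19.3 and 7.88 FPKM in KO on WD and 57.5, 48.5 and 71.1 FPKM in WT on CD it still fell by 2.11 ± 0.31, since its deletion effect of -3.05 outweighed a diet effect of 0.95. That diet call (adjusted p = 0.0293) was lost in 6 of 14 fits that left out a library, with adjusted p from 0.0181 to 0.0867. The diet call of Lrrc16a, a regulator of actin capping (effects -2.0 ± 0.29 and 1.10 ± 0.29), was lost in 13 of the 14. Over the 15 genes the median combined change was 0.03, and 8 lay within 1 SE of 0. Cidea, a lipid droplet protein that also belongs to them, was listed at 0 in every library on CD and averaged 0.0309 FPKM in KO on WD and 11.6 ± 7.99 in WT on WD, so that both of its averaged effects come from 1 group and its departure was called too (-3.38 ± 0.53, limma adjusted p = 0.0241, and 0.527 on adding a term for the library set).

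The deletion raised and the diet lowered 69 genes, with a median deletion effect of 0.85, a median diet effect of -0.85 and a median combined change of -0.03. Of these, 36 lay within 1 SE of 0, and 68 had effects of the same signs in all 4 single steps, which the choice of the genes makes likely. Enho, which encodes the secreted peptide adropin (minus strand, chr4:41638144-41640324), was at 40.8, 20.8, 20.5 and 16.2 FPKM in KO on WD and at 28.9, 17.7 and 12.9 FPKM in WT on CD, a difference of 0.28 ± 0.52. It was at 75.8, 99.6 and 120 FPKM in KO on CD, with 1.21, 7.99, 2.85 and 0.331 FPKM in WT on WD, effects of 2.61 ± 0.37 for the deletion and -2.33 ± 0.37 for the diet. Etnppl, which degrades phosphoethanolamine, averaged 58.2 ± 8.89 FPKM in KO on WD and 57.6 ± 12.2 in WT on CD, against 81.5 ± 13.1 in KO on CD and 16.5 ± 4.86 in WT on WD (effects 1.15 ± 0.17 and -1.12 ± 0.17). Gstt3, a theta-class glutathione transferase, had effects of 1.47 ± 0.16 and -1.22 ± 0.16, and the lipid transporter Abca8a 1.08 ± 0.17 and -1.15 ± 0.17. These 4 genes kept both calls in each of the 14 fits that left out a library. Ccl9, a chemokine, had effects of 1.90 ± 0.28 and -1.16 ± 0.28, of which the second was lost in 11 of the 14.

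**Figure D4:**
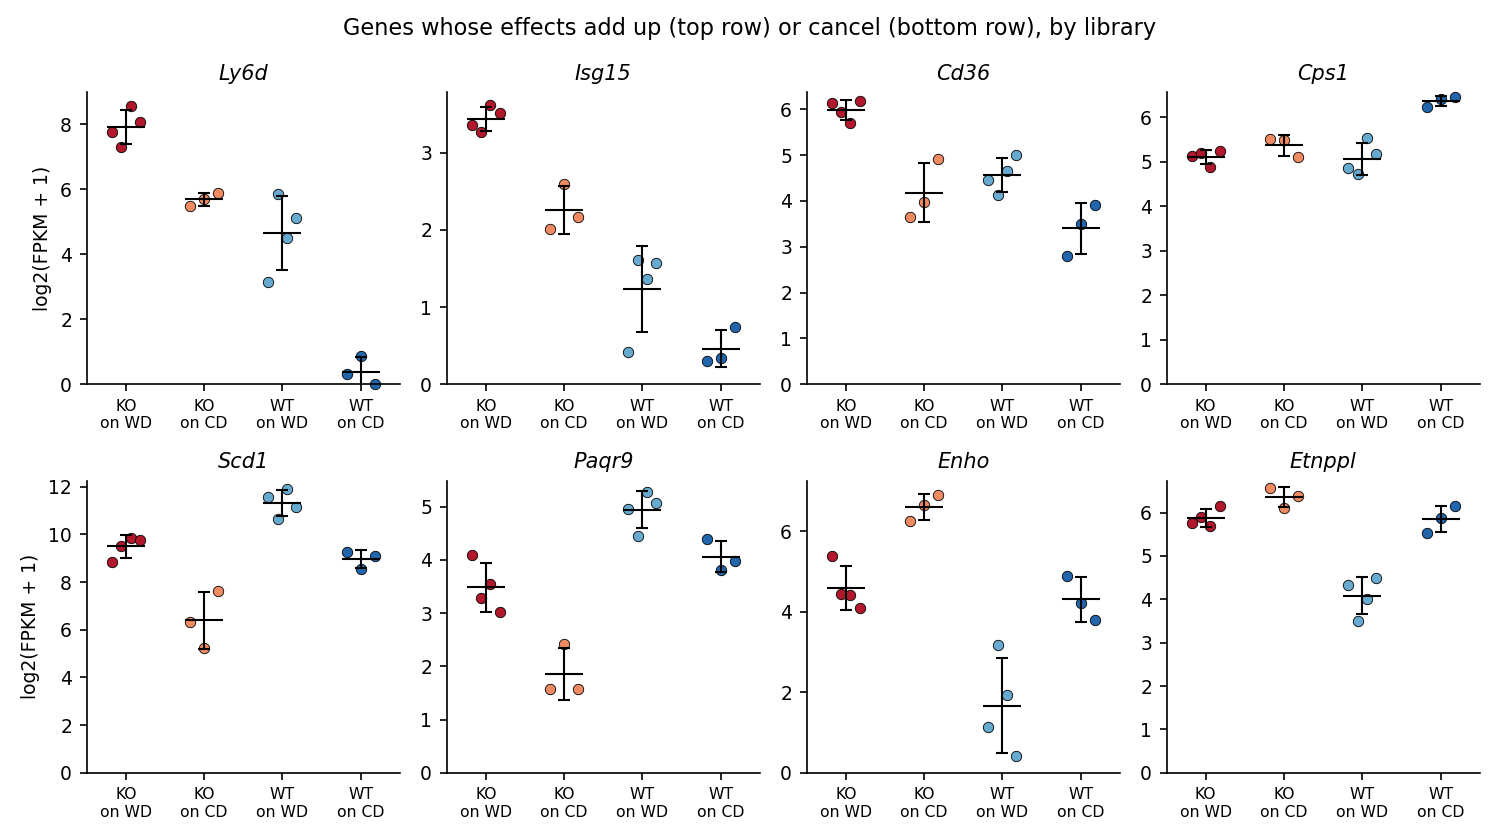
FPKM on the log2(FPKM + 1) scale (vertical axis) of 4 genes that add up (Ly6d, Isg15, Cd36 and Cps1, top) and 4 that cancel (Scd1, Paqr9, Enho and Etnppl, bottom) in KO on WD, KO on CD, WT on WD and WT on CD; points are libraries and bars the mean ± SD. In the lower row KO on WD and WT on CD overlap, and the means of KO on CD and WT on WD lie on opposite sides of them.

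A combined change was still called in 8 of the 69 genes, which are all named here although most fall outside the rule for named genes. The others were not called, which does not show that cancelling was complete in them. Tff3, Cyp2a5, Cyp1a2, Akr1c19 and Slc2a5 stayed higher in KO on WD. Tff3 was at 43.3, 117, 59.0 and 37.1 FPKM in KO on WD, 130, 278 and 323 FPKM in KO on CD, 2.59, 2.30, 2.23 and 0 FPKM in WT on WD, and 13.0, 4.36 and 5.41 FPKM in WT on CD. Its deletion effect of 4.71 ± 0.37 exceeded its diet effect of -1.81 ± 0.37. The P450 genes Cyp2a5, an NRF2 target, and Cyp1a2, which oxidises aromatic amines, had deletion effects of 3.02 and 2.08 and diet effects of -1.08 and -1.08, and the aldo-keto reductase Akr1c19 effects of 1.59 and -0.85. The fructose transporter Slc2a5 had effects of 1.48 and -0.61. In contrast Cyp51, Slco1a4 and Apom stayed lower in KO on WD. Cyp51, the lanosterol demethylase, averaged 13.0 ± 3.01 FPKM in KO on WD, 60.0 ± 20.1 in KO on CD, 6.07 ± 1.17 in WT on WD and 33.4 ± 3.75 in WT on CD (effects 0.87 ± 0.18 and -2.19 ± 0.18). Slco1a4 had effects of 0.74 ± 0.19 and -2.97 ± 0.19. Apom, the sphingosine-1-phosphate carrier of lipoproteins, averaged 30.7 ± 4.02 FPKM in KO on WD, 280 ± 39.9 in KO on CD, 20.2 ± 7.01 in WT on WD and 187 ± 11.8 in WT on CD (effects 0.60 ± 0.17 and -3.18 ± 0.17). The smaller effects were the less firm: fits that left out a library ended the diet calls of Cyp2a5 in 8 and of Slc2a5 in 10, and the deletion calls of Apom in 7 and of Slco1a4 in 1 (without WT on CD 1, adjusted p = 0.0502). The combined calls of Akr1c19, Cyp1a2 and Slc2a5 were lost in 4, 5 and 2 of them. With the set term the deletion call of Apom was lost (adjusted p = 0.106).

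**Figure D5:**
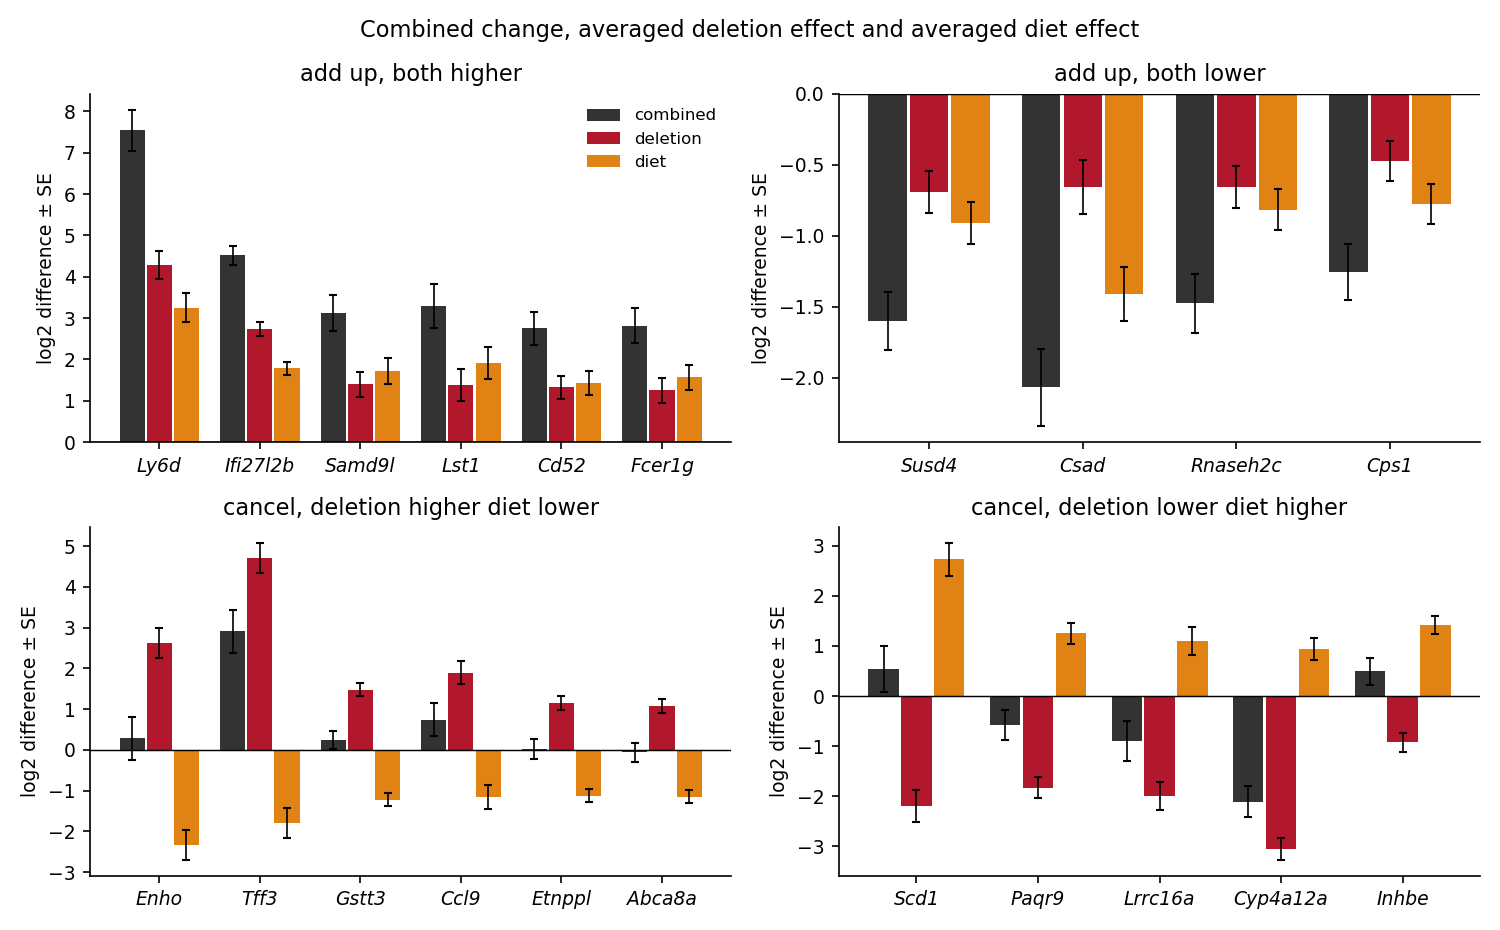
Combined change, averaged deletion effect and averaged diet effect (log2 units, bars ± SE) of the named genes that add up and that cancel. In the cancelling genes the deletion and diet bars point in opposite directions, and Tff3 and Cyp4a12a keep a called combined change.

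Departures from additivity, the interaction of deletion and diet, were called for 37 genes (0.34%), 24 positive (0.221%) and 13 negative (0.12%). With a term for the library set 2 were called. Positive calls made up 64.9% with the deposited scaling and 52.8% after quantile normalization. Leaving out single libraries gave 4 to 1037 calls, the widest range among the counts of genes here, and all KO on CD libraries belong to set 2. Manf, an endoplasmic reticulum stress factor, was at 287, 296, 157 and 302 FPKM in KO on WD, 38.8, 77.1 and 17.7 FPKM in KO on CD, 66.8, 30.0, 127 and 128 FPKM in WT on WD, and 213, 182 and 140 FPKM in WT on CD. Each change alone came with a lower level and both together with a level that overlapped WT on CD, a departure of 3.91 ± 0.72 (limma adjusted p = 0.0384). Chac2, a glutathione-degrading cyclotransferase, Lrrc16a, and Rbpms, an RNA-binding protein, had departures of 3.45 ± 0.57, 3.12 ± 0.57 and 2.72 ± 0.41. With the set term the adjusted p of these 4 genes ran from 0.289 in Rbpms to 0.784 in Manf, and leaving out single libraries ended the call in 9, 8, 10 and 6 of 14 fits in the order given.

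The largest negative departure was that of Cux2, a homeobox factor of female mouse liver named here after its values were seen, since its mean level is below the 5 FPKM of the rule. It was at 0, 0.407, 1.18 and 1.98 FPKM in KO on WD, 12.8, 17.8 and 29.5 FPKM in KO on CD, and under 1 FPKM in every WT library. Its departure was -3.67 ± 0.48 (limma adjusted p = 0.00983), called in all 14 fits that left out a library and not with the set term (adjusted p = 0.304). Cux2 was thus high in a single group, KO on CD, of which all 3 libraries belong to set 2. Apoa4, at 10.4, 20.6, 18.3 and 13.5 FPKM in KO on WD, averaged 4.57 ± 0.319 in KO on CD, 29.6 ± 7.60 in WT on WD and 0.931 ± 0.62 in WT on CD, a departure of -2.46 ± 0.38. Gpc1, a heparan sulfate proteoglycan, Dhodh, of pyrimidine synthesis, and Agpat6, of glycerolipid synthesis, had departures of -2.45 ± 0.44, -2.23 ± 0.31 and -1.85 ± 0.36. The call of Dhodh held in all 14 fits that left out a library, those of Apoa4, Gpc1 and Agpat6 were lost in 5, 10 and 10, and none of the 4 was called with the set term (adjusted p from 0.374 to 0.766).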

How the data were processed

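RNA of whole mouse liver was measured in 14 libraries by 3' tag sequencing (QuantSeq 3' FWD on a NovaSeq from total RNA, per the labels' protocols). The authors deposited 1 table of FPKM values for 43548 genes, and Cufflinks and mm10 are named in the submitters' processing notes. The aligner, the versions, the annotation and the rule for multi-mapping reads are not stated there. FPKM also divides by transcript length, although a 3' tag does not scale with length, so levels are not compared between genes. Read depth is unknown, so no counting intervals are given. One row, filled with a placeholder in 8 libraries, was left out.

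From these values log2(FPKM + 1) was computed, and the 10870 genes that reached 1 FPKM in 3 or more libraries were tested. One limma fit (version 3.58.1, R 4.3.3, with a trend) held 1 mean for each of the 4 groups and left 10 residual degrees of freedom. Two-sided p-values were adjusted by the Benjamini-Hochberg method over all tested genes, with a threshold of 0.05. The fit was checked on simulated data. The deletion and diet effects were averaged over the other factor, add up to the combined change, and have uncorrelated errors. They were said to add up, or to cancel, where both were called in the same, or in opposite, directions.

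Named genes were Cul3, the 10 largest called rises and falls of at least 5 FPKM on average with groups that do not overlap, the 6 genes of each adding and cancelling class with the largest smaller effect, the 4 largest called departures in each direction, and up to 4 members of each list with the smallest p. Further called members of the lists and genes said to be chosen after their values were seen fall outside it. One gene that the rule names is not reported here. The 46 lists hold 820 members, of which 818 were in the table and 663 were tested. Members and lists were chosen with earlier results of these data known. Groups came from the sample titles. Gene positions are from GENCODE M21 and promoters from RefSeq, both on the mm10 assembly. The alternatives tried were other pseudocounts, filters, scalings and spread estimates, the library set as a term, the replicate number as a block, other ways to define adding and cancelling, and fits without 1 library each.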

Additional observations from a re-analysis of the deposited data

Results flagged for a closer look

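In groups of 4 libraries, a gene's highest or lowest library was marked where its gap to the next library, as a share of the group's range, exceeded Dixon's critical value. This happened in 23 of 336 groups examined (6.85%), and chance alone marks about 1 in 20 where values are normally distributed. The ratio was taken on FPKM, not on the log2 scale, and FPKM need not be so distributed, so that rate is a rough guide. In KO on WD, replicate 1 stood above the rest in Serpina1e (563 FPKM) and Inhbe (12.4 FPKM). Replicate 2 stood above the rest in Lst1 (79.9 FPKM), Cd44 (25 FPKM), Ccnd2 (16.9 FPKM) and Cidea (0.124 FPKM, the other 3 being listed at 0). Replicate 3, the KO on WD library of set 2, was lowest in Manf (157 FPKM) and highest in Cidec (15 FPKM). Replicate 4 was highest in Cyp17a1 (12.3 FPKM), Stab2 (7.88 FPKM) and Igf2 (2.63 FPKM).

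In WT on WD, replicate 1 was highest in Ccl9 (18.5 FPKM) and lowest in Bcl6 (3.41 FPKM). Replicate 2 was highest in Txnrd1 (17 FPKM), Sdsl (14 FPKM) and Ugt2b37 (12.9 FPKM) and lowest in Slco1a4 (3.02 FPKM). Replicate 3 was highest in S100a9 (130 FPKM), Camp (16.6 FPKM) and Spink3 (0.605 FPKM). Replicate 4 was highest in Mup1 (8303 FPKM) and Cyp3a41b (3.26 FPKM) and lowest in Tff3, which is listed at 0 FPKM there.

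For 12 named genes the diet effect in KO differed from the diet effect in WT by a test of the difference itself, the departure from additivity in the limma fit. The diet effect was higher in KO than in WT in Manf (2.71 in KO and -1.21 in WT, departure 3.91), Chac2 (2.28 in KO and -1.17 in WT, departure 3.45), Lrrc16a (2.66 in KO and -0.46 in WT, departure 3.12), Rbpms (1.86 in KO and -0.86 in WT, departure 2.72) and Gadd45a (2.24 in KO and -0.44 in WT, departure 2.69). It was lower in KO than in WT in Cux2 (-3.52 in KO and 0.15 in WT, departure -3.67), Cidea (0.04 in KO and 3.42 in WT, departure -3.38), Apoa4 (1.54 in KO and 4.0 in WT, departure -2.46), Gpc1 (0.27 in KO and 2.72 in WT, departure -2.45), Dhodh (-1.52 in KO and 0.71 in WT, departure -2.23), Agpat6 (-0.94 in KO and 0.91 in WT, departure -1.85) and Abcg5 (-0.17 in KO and 1.3 in WT, departure -1.48). With the library set as a term, 2 departures were called over all genes.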

How the results depend on the processing

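With all libraries and the deposited scaling, 1290 genes were called for the combined change (1121 higher and 169 lower), 1640 for the deletion, 449 for the diet and 37 for a departure, while 77 added up and 84 cancelled, 9 of these 84 with a called combined change. All 1290 kept their sign in every alternative that tested them, except 1 gene after quantile normalization. Counts moved by over 1.5 times as follows, and the cause was not tested. Quantile normalization gave 762 combined calls (472 higher, 290 lower), 884 deletion calls and 51 cancelling genes. Median centring gave 712 combined calls (385 higher, 327 lower), 824 deletion calls and 47 cancelling genes. A pseudocount of 0.1 FPKM gave 24 departures, no filter on low values gave 21 departures and 4 cancelling genes with a called combined change, and a filter at 5 FPKM gave 184 departures. The library set as a term gave 2 departures and 14 cancelling genes with a called combined change. Effects along the path through WT on WD gave 8 adding and 35 cancelling genes (4 called), and along the path through KO on CD 17 adding and 240 cancelling genes (15 called); on these paths the 2 effects share the libraries of the group between them. At an adjusted p under 0.10 for both effects, 174 genes added up and 145 cancelled (21 called).

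Fits that each left out 1 library gave 638 to 1626 combined calls (548 to 1409 higher, 90 to 217 lower), 1145 to 2161 deletion calls, 220 to 797 diet calls, 4 to 1037 departures, 40 to 116 adding genes, 42 to 153 cancelling genes and 4 to 18 cancelling genes with a called combined change. The lowest count of combined calls came without WT on CD 3 and the highest without WT on WD 2. The replicate numbers did not pair the libraries: deviations from the group means of libraries with the same number correlated at 0.0444, -0.1884 and -0.029 for replicates 1, 3 and 4. Adding a term for the library set left 1487 combined calls, within 1.5 times the 1290. With the replicate block the counts were 925 combined calls, 212 diet calls, 4 departures, 45 adding and 44 cancelling genes, 3 of these called. Read depth is unknown, which leaves the precision of low genes unstated.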
